A study of Mus musculus with 8 samples.

Results

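Wnt ligands, their receptors and their inhibitors were examined in quiescent muscle stem cells of young and old mice. The members were chosen by gene symbol alone. The pattern took the Wnt ligands, R-spondins, Frizzled receptors, the co-receptors Lrp5 and Lrp6, Lgr4 to Lgr6, the Sfrp and Dkk inhibitors, Ctnnb1 (beta-catenin), Apc, Axin1, Axin2, the Tcf7 family and Lef1. It found 54 of the 24630 genes in the deposited table. Of these, 17 had a mean of at least 1 RPKM over the 8 libraries as deposited (RPKM, the reads of a gene divided by its length in kilobases and by the library size in M, the SI prefix mega) and were tested, and 37 fell below it. Just inside that threshold lay Sfrp2, with a mean of 1.19 RPKM, and Sfrp1, with 1.26 RPKM. Just outside lay Fzd7 with 0.966 RPKM and Wnt4 with 0.941 RPKM.

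Muscle stem cells (satellite cells) were isolated from the limb muscles of 8 male C57BL/6 mice. The young group was 4 months old (n = 4) and the old group 22 months (n = 4). Each animal gave 1 library. Cells were sorted by flow cytometry as CD45-, CD31- and Sca1- and VCAM+, which removes leukocytes, endothelium and most fibro-adipogenic cells, and were frozen without culture. The labels name no allele, drug or injury, and age is the only difference between the groups that they name. The question is which parts of the Wnt machinery were expressed at each age and whether their RNA levels differed.

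Secreted Wnt proteins bind a Frizzled receptor together with Lrp5 or Lrp6. Without that signal, Axin, Apc and the kinase Gsk3 mark beta-catenin for destruction, and with it beta-catenin accumulates and acts with TCF/LEF factors in the nucleus. Sfrp proteins bind Wnt outside the cell, most Dkk proteins block Lrp5 and Lrp6, and R-spondins acting through Lgr receptors keep Frizzled at the cell surface. In skeletal muscle the pathway is known for its part in myogenic commitment during repair, and raised Wnt activity in aged muscle has been tied to a fibrogenic drift of satellite cells.

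The depth differed between the ages. Reads in genes came to 2.69, 1.91, 6.56 and 5.69 M in young animals 1 to 4 and to 20.1, 24.9, 22.9 and 20.8 M in old animals 1 to 4. In a 1 kb gene, 3 reads were worth between 0.458 and 1.57 RPKM in a young library and between 0.121 and 0.149 RPKM in an old one. These floors cover counting error only. Olfactory and vomeronasal receptor genes, which muscle does not use, took 0.191% ± 0.136 of reads in the young and 0.0105% ± 0.00398 in the old libraries (SD, n = 4 each). Depth, this low-level signal and age cannot be told apart in this design. The 10 muscle stem cell markers summed to 9118 to 12657 CPM (counts per M reads in genes) in the young and to 10780 to 13687 CPM in the old libraries. Of these 10, 3 fell (Pax7, Calcr and Cdh15), 2 rose (Myod1 and Vcam1) and 5 were not called by the test described next. The log2 fold change was -0.68 for Pax7, the defining transcription factor of satellite cells, -1.53 for Calcr, a marker of their quiescence, -0.86 for Cdh15, 0.78 for Myod1 and 0.79 for Vcam1. Pax7 was not called on the deposited scale or with TMM, and Cdh15 was not called on the deposited scale.

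Unless another scale is named, values below are RPKM scaled to each library's reads in genes, called RPKM on library totals. Fold changes are differences in log2(RPKM + 1), old against young, from limma-trend over 11096 genes, with Benjamini-Hochberg adjusted p-values. The scale matters. Over all tested genes the median log2 fold change stood at -0.19 on library totals, at 0.36 on the deposited scale and at -0.04 with TMM factors (trimmed mean of M-values) computed over the tested genes. Of the calls over all genes, 25.7% were higher in old on library totals, 88.7% on the deposited scale and 48.5% with TMM. The same shares among the members were 71.4%, 90.9% and 75.0%. They include Sfrp2, which passed the filter through its young libraries only, and Sfrp1, which passed through its old libraries only.

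Of the 17 tested members, 5 were higher in old (Sfrp4, Dkk3, Ctnnb1, Apc and Axin1), 2 were lower (Sfrp2 and Fzd4) and 10 did not pass the threshold. Over all tested genes, 7.11% were called higher and 20.5% lower. On the deposited scale 10 members were called higher and 1 lower, beside 42.1% and 5.34% of all genes. With TMM 6 were higher and 2 lower, beside 13.3% and 14.1% of all genes. The members' median log2 fold change was 0.10 on library totals, 0.52 on the deposited scale and 0.24 with TMM. Sfrp4, Dkk3, Ctnnb1, Apc and Axin1 were called higher on all 3 scales by limma-trend. With limma-voom on recovered reads, Dkk3 and Axin1 were not called (limma-voom adjusted p = 0.0993 and 0.0619). Every old value lay above every young value for 4 members (Sfrp4, Ctnnb1, Apc and Axin1), beside 7.86% of all tested genes. Every old value lay below every young value for 3 members (Sfrp2, Fzd4 and Lgr4), beside 23.1% of all tested genes. Sfrp2 reached the filter only through its young libraries and Sfrp1 only through its old libraries, so these counts describe the members and support nothing further. With the filter applied in both groups, 15 members were tested, 5 were higher and 1 (Fzd4) was lower. Over all genes, 757 of 10224 were higher under that filter, and the count of lower genes is not given here.

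**Figure D1:**
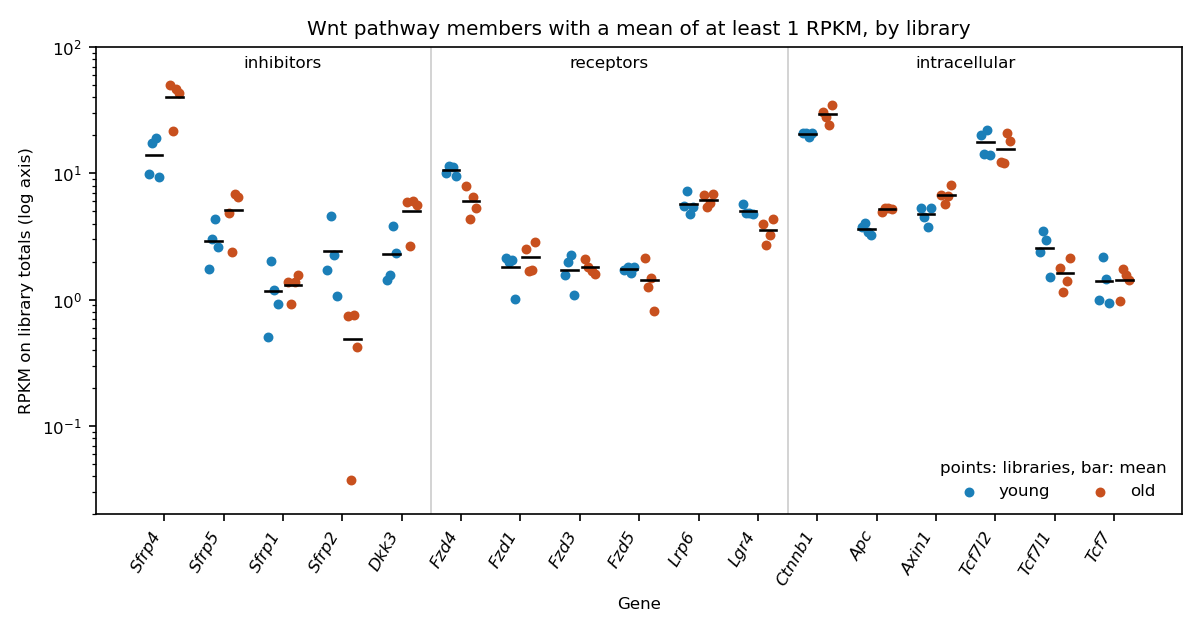
RPKM on library totals (log axis) of the 17 tested members, by gene. Each point is 1 library, blue for young and orange for old, and the bar is the mean of 4. Sfrp4, Ctnnb1, Apc and Axin1 sit higher in all 4 old libraries, and Sfrp2, Fzd4 and Lgr4 sit lower in all 4.

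Promoter sequence was drawn from RefSeq (GRCm38.p6) in windows of 300 bases, from 250 bases before to 50 bases after a transcript start. Entries were matched for 35 of the 54 members by symbol, with 44 windows. Shown here are the 250 bases before the start for 3 tested members with differing levels (Ctnnb1, Fzd4 and Sfrp2) and for the ligand Wnt11, whose window held a TCF/LEF core. The core searched was CTTTGAT or CTTTGAA on both strands. Letters are lower case, and capitals mark the match in Wnt11, which reads CTTTGAT on the minus strand.
Ctnnb1, chr9:120933150-120933399, plus strand: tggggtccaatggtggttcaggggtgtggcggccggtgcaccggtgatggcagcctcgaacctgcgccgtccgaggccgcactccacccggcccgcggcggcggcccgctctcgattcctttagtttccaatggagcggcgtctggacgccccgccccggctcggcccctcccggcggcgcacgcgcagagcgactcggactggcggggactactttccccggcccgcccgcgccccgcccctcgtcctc
Fzd4, chr7:89404116-89404365, plus strand: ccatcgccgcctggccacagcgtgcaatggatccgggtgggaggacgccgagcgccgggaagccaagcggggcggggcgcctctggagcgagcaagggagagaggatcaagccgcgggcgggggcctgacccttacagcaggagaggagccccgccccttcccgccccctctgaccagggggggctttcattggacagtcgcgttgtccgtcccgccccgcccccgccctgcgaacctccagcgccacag
Sfrp2, chr3:83766071-83766320, plus strand: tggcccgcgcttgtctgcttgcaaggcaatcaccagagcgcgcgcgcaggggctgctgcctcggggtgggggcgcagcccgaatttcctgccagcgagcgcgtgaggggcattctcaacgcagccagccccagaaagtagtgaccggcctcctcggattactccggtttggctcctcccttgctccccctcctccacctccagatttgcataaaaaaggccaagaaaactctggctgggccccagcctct
Wnt11, chr7:98834862-98835111, plus strand: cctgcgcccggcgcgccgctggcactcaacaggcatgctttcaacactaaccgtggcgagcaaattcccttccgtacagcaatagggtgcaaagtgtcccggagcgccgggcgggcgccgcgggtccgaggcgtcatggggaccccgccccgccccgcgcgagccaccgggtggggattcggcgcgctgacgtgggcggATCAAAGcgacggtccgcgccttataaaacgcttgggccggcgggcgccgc
The Ctnnb1 and Fzd4 windows precede RefSeq starts that lie inside the genes' GENCODE intervals, so these printed stretches end within the genes. The G and C content of the printed stretches was 74.8% for Ctnnb1, 72.8% for Fzd4, 63.6% for Sfrp2 and 70.8% for Wnt11. Over the members' full windows the median was 68.3%, and over all 32851 windows it was 52.7%. A core was found in 3 of the 44 member windows (6.82%, in Dkk1, Wnt5b and Wnt11) and in 8.65% of all windows. The 10 tested members with an entry had 13 windows, and 0 of these held a core. No match says only that these letters are not in that window.

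Among the secreted inhibitors, Sfrp4 rose in old cells and Dkk3 rose with overlapping groups. Sfrp4 (chr13:19623104-19632994, plus strand, GENCODE M21 on GRCm38) encodes a secreted Frizzled-related protein that binds Wnt. It measured 9.93, 17.3, 19.1 and 9.31 RPKM in the young libraries and 49.99, 21.6, 46.7 and 43.5 RPKM in the old. All 4 old libraries lay above all 4 young ones, with old animal 2 nearest to them. The means were 40.5 ± 12.8 and 13.9 ± 5.01 RPKM (SD, n = 4 each), and the fold change was 1.47 ± 0.29 in log2 units (SE, limma adjusted p = 0.00693). The log2 fold change was 2.13 on the deposited scale and 1.65 with TMM. The call was lost when young animals 1 and 2, the libraries with the fewest reads, were both left out (1.46, limma adjusted p = 0.0592).

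Dkk3 (chr7:112116017-112159057, minus strand) encodes a secreted protein of the Dickkopf family that, unlike Dkk1, is not a typical Lrp6 antagonist. Its young libraries held 1.44, 1.56, 3.86 and 2.35 RPKM and its old libraries 5.92, 2.66, 6.08 and 5.61 RPKM. Old animal 2 lay below young animal 3, so the groups overlapped. The old mean was 5.07 ± 1.62 RPKM and the young mean 2.30 ± 1.12 RPKM, and the fold change was 0.89 ± 0.26 in log2 units (limma adjusted p = 0.0316). The call held in 2 of the 8 fits that left out 1 library, those without young animal 3 and without old animal 2. It was lost without young animal 1, 2 or 4 or old animal 1, 3 or 4, where the limma adjusted p lay between 0.0747 and 0.110. Without both young animals 1 and 2 the log2 fold change was 0.54 (limma adjusted p = 0.275).

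Sfrp2 (chr3:83766321-83774316, plus strand) is another secreted Wnt-binding protein. It measured 1.72, 4.61 (19 reads), 2.27 and 1.06 RPKM in the young libraries and 0.740, 0.037 (2 reads), 0.751 and 0.424 RPKM in the old. No old library reached a young one. The old mean was 0.488 ± 0.337 RPKM and the young mean 2.42 ± 1.55 RPKM (SD, n = 4 each), from 90 reads over the 4 old and 74 over the 4 young libraries. The mean of the silent receptor families in the young libraries ran from 0.202 to 0.982 RPKM. Sfrp2 reached the filter only through the young libraries, where it is high, so it had to differ, and its fitted log2 fold change of -1.13 ± 0.31 is a description with no test read from it. It left the tested set when the filter was applied in both groups, which kept 15 members. With the silent families' mean subtracted in each library, the log2 fold change was -0.94.

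Sfrp5 and Sfrp1, both Wnt-binding inhibitors of the same family, did not pass the threshold on library totals. Sfrp5 (chr19:42197971-42202252, minus strand) held 1.76, 3.03, 4.33 and 2.59 RPKM in the young and 4.85, 2.39, 6.81 and 6.53 RPKM in the old libraries. Its log2 fold change was 0.61 ± 0.28 (limma adjusted p = 0.119). It was called higher on the deposited scale (1.14, limma adjusted p = 0.00318), with TMM (0.76, limma adjusted p = 0.0483) and without old animal 2 (0.88, limma adjusted p = 0.03003). Sfrp1 held 0.509, 2.03, 1.19 and 0.924 RPKM in the young and 1.38, 0.929, 1.38 and 1.56 RPKM in the old libraries, which overlapped. Its log2 fold change was 0.13 ± 0.24 (limma adjusted p = 0.689). On the deposited scale it was 0.52, which is also only a description, since the old libraries alone carried it past the filter.

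The Sfrp group also differed in composition within each library, a measure that the scale between libraries does not touch. The low-level signal still enters it. The silent families' mean per gene was 0.486 ± 0.341 RPKM in the young and 0.0270 ± 0.00987 RPKM in the old libraries. The Sfrp sum includes Sfrp2, which passed the filter through its young libraries only. The Frizzled sum includes 6 genes below the filter. Sfrp4 made up 85.5% ± 2.01 of the summed Sfrp RPKM in old and 68.4% ± 3.46 in young libraries (SD, n = 4 each). The summed Sfrp level was 47.4 ± 15.1 RPKM in old and 20.4 ± 7.52 RPKM in young. Sfrp4 exceeded Ctnnb1 in 3 of the 4 old and in 0 of the 4 young libraries. The ratio of summed Sfrp to summed Frizzled RPKM was 3.45 ± 0.801 in old and 1.08 ± 0.321 in young. These within-library values were chosen after the members' values were seen and are given with no test.

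Markers of other cells moved beside the inhibitors. Tenocyte markers (7 listed, among them Tnmd, Fmod and Thbs4; all but Scx passed the filter) rose in 6 of the 6 tested. Their summed level was 652 to 1011 CPM in the young libraries. It was 5244, 1731, 2544 and 3935 CPM in old animals 1 to 4. Fibroblast markers summed to 6147 to 7878 CPM in young and to 7275, 4209, 7072 and 5999 CPM in old libraries, and of the 10 tested 1 rose (Dcn) and 2 fell (Col1a1 and Col3a1). Old animal 2 had the lowest old value of the tenocyte sum, of the fibroblast sum and of each of Sfrp4, Dkk3, Sfrp5 and Sfrp2. It also had the lowest old sum of endothelial (159 CPM), pericyte and smooth muscle (350 CPM) and leukocyte markers (11.8 CPM). The same held for Schwann (101 CPM) and muscle fibre markers (97.2 CPM), so the low value was not particular to tenocyte and fibroblast markers. Its muscle stem cell sum was the highest of the old libraries (13687 CPM). That library held the lowest old value of 12 of the 17 tested members. Without it, the log2 fold change of Sfrp4 was 1.74. Endothelial markers summed to 399 to 437 CPM in young and to 159 to 384 CPM in old, and leukocyte markers to 41.2 to 94.7 CPM in young and to 11.8 to 31.6 CPM in old. No marker gene of these lists was without reads in either group. The part of these cells in the inhibitors' levels was not tested. In bulk samples, fewer cells of a type and less RNA per cell cannot be told apart.

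**Figure D2:**
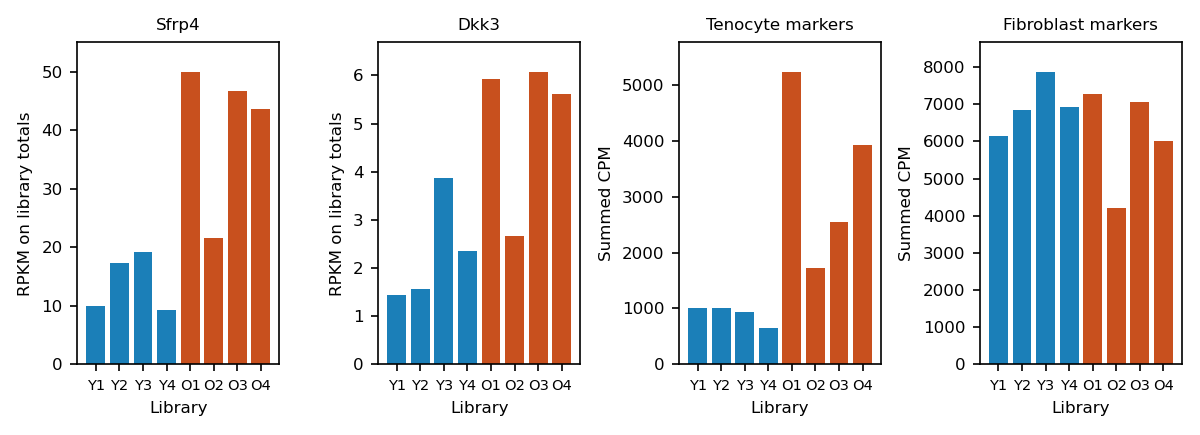
Sfrp4 and Dkk3 (RPKM on library totals) beside the summed tenocyte and fibroblast markers (CPM), 1 bar per library, blue for young animals (Y1 to Y4) and orange for old (O1 to O4). Old animal 2 has the lowest of the 4 old bars in each panel, and the tenocyte bars of all 4 old libraries exceed the highest young bar of 1011 CPM.

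Of the Frizzled receptors, Fzd4 had the highest level at both ages and was lower in old cells. Fzd4 (chr7:89404355-89413134, plus strand) encodes a Frizzled receptor that binds Wnt proteins and also the ligand norrin. Its young libraries held 10.1, 11.4, 11.2 and 9.49 RPKM and its old libraries 7.97, 4.33, 6.55 and 5.31 RPKM. All old values lay below all young ones. The old mean was 6.04 ± 1.57 RPKM and the young mean 10.5 ± 0.891 RPKM, and the fold change was -0.74 ± 0.16 in log2 units (limma adjusted p = 0.00990). It was -0.57 with TMM (limma adjusted p = 0.0176), but -0.12 and not called on the deposited scale (limma adjusted p = 0.545). Without young animals 1 and 2 it was -0.71 (limma adjusted p = 0.0759). Within libraries, Fzd4 made up 44.2% ± 4.58 of the summed Frizzled RPKM in old and 56.4% ± 2.74 in young. The low-level signal was not removed from that sum, which includes 6 Frizzled genes below the filter.

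The other 3 tested Frizzled receptors held 0.806 to 2.84 RPKM, and their groups overlapped. Fzd1 held 2.12, 1.99, 2.07 and 1.00 RPKM in the young and 2.53, 1.68, 1.71 and 2.84 RPKM in the old libraries (log2 fold change 0.19 ± 0.20, limma adjusted p = 0.487). Fzd3 held 1.58, 1.98, 2.27 and 1.08 RPKM in the young and 2.09, 1.82, 1.70 and 1.60 RPKM in old (0.06 ± 0.18, limma adjusted p = 0.834). Fzd5 held 1.72, 1.82, 1.63 and 1.83 RPKM in the young and 2.13, 1.26, 1.48 and 0.806 RPKM in old (-0.21 ± 0.19, limma adjusted p = 0.424). For Fzd5 the direction turned on the deposited scale, where the log2 fold change was 0.20, and after the low-level signal was subtracted (0.062). Fzd1 (0.65) and Fzd3 (0.50) were called higher on the deposited scale (limma adjusted p = 0.0114 and 0.0270).

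Of the co-receptors, Lrp6 was tested and Lrp5 lay below the filter. Lrp6 held 5.51, 7.31, 4.76 and 5.37 RPKM in the young and 6.73, 5.40, 5.79 and 6.91 RPKM in the old libraries, which overlapped. Its log2 fold change was 0.10 ± 0.14 (limma adjusted p = 0.595), against 0.70 on the deposited scale (limma adjusted p = 0.00146). Lgr4 (chr2:109917647-110014257, plus strand), a receptor for R-spondins, held 5.68, 4.89, 4.82 and 4.75 RPKM in the young and 3.96, 2.72, 3.26 and 4.37 RPKM in old. The groups did not overlap, yet the log2 fold change of -0.41 ± 0.14 missed the threshold (limma adjusted p = 0.0508). Its sign turned on the deposited scale (0.15). It passed without old animal 4 (-0.49, limma adjusted p = 0.0452).

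Beta-catenin and the scaffolds Apc and Axin1 were higher in old cells. Gsk3b, a kinase outside the set named after its value was seen, was lower on library totals and with TMM (-0.78 and -0.64 in log2 units). It was not called on the deposited scale. The kinases Gsk3a and Csnk1a1, also named after their values were seen, did not follow it. They were not called on library totals (0.12 and -0.17) or with TMM (0.25 and 0.02). On the deposited scale both were called higher (0.60 and 0.52). These kinases come from a list with 20 tested cytoplasmic genes. Of these, 5 were lower, 0 higher and 15 not called on library totals, beside 20.5% lower over all genes. Ctnnb1 (chr9:120929216-120960507, plus strand) encodes beta-catenin. It measured 20.8, 20.7, 19.5 and 20.7 RPKM in the young and 30.8, 28.2, 24.0 and 34.7 RPKM in the old libraries. The young libraries lay close together, and all old values lay above them. The old mean was 29.4 ± 4.48 RPKM and the young mean 20.4 ± 0.645 RPKM, and the fold change was 0.49 ± 0.12 in log2 units (limma adjusted p = 0.0170). Without young animals 1 and 2 it was 0.52 (limma adjusted p = 0.0665).

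Apc, the scaffold that holds beta-catenin in the destruction complex, held 3.75, 4.02, 3.41 and 3.22 RPKM in the young and 4.96, 5.31, 5.36 and 5.23 RPKM in the old libraries. The 2 groups did not overlap. The old mean was 5.22 ± 0.180 RPKM and the young mean 3.60 ± 0.353 RPKM, and the fold change was 0.44 ± 0.11 in log2 units (limma adjusted p = 0.0170). It was the only tested member still called without young animals 1 and 2 (0.53, limma adjusted p = 0.0303). Axin1 (chr17:26138688-26195811, plus strand), the limiting scaffold of the complex, held 5.33, 4.51, 3.75 and 5.32 RPKM in the young and 6.68, 5.68, 6.58 and 8.06 RPKM in old. Every old value lay above every young one, with means of 6.75 ± 0.981 and 4.73 ± 0.761 RPKM and a fold change of 0.44 ± 0.14 in log2 units (limma adjusted p = 0.0404). That call held in 1 of the 8 fits with 1 library left out, the one without old animal 2. In the fits without young animal 1, 2, 3 or 4 or old animal 1, 3 or 4 the limma adjusted p lay between 0.0550 and 0.109. On the deposited scale Ctnnb1, Apc and Axin1 had log2 fold changes of 1.16, 1.00 and 1.02, and with TMM 0.68, 0.59 and 0.60. Axin2, the complex member that is also a widely used readout of beta-catenin activity, lay below the filter.

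The TCF/LEF factors, which carry beta-catenin's effect on transcription, showed no call in either direction. Tcf7l2 was the most abundant, with 20.003, 14.2, 22.1 and 13.9 RPKM in the young and 12.3, 11.98, 20.7 and 17.9 RPKM in the old libraries. Its log2 fold change was -0.16 ± 0.21 (limma adjusted p = 0.577) and turned to 0.49 on the deposited scale and 0.018 with TMM. Tcf7l1, mostly a repressor, held 2.36, 3.46, 2.99 and 1.52 RPKM in the young and 1.76, 1.16, 1.40 and 2.16 RPKM in old (-0.44 ± 0.21, limma adjusted p = 0.139). Its sign turned on the deposited scale, to 0.027. Tcf7 held 0.990, 2.19, 1.45 and 0.937 RPKM in the young and 0.968, 1.75, 1.57 and 1.43 RPKM in old (0.04 ± 0.21, limma adjusted p = 0.903). All 3 factors had overlapping groups.

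**Figure D3:**
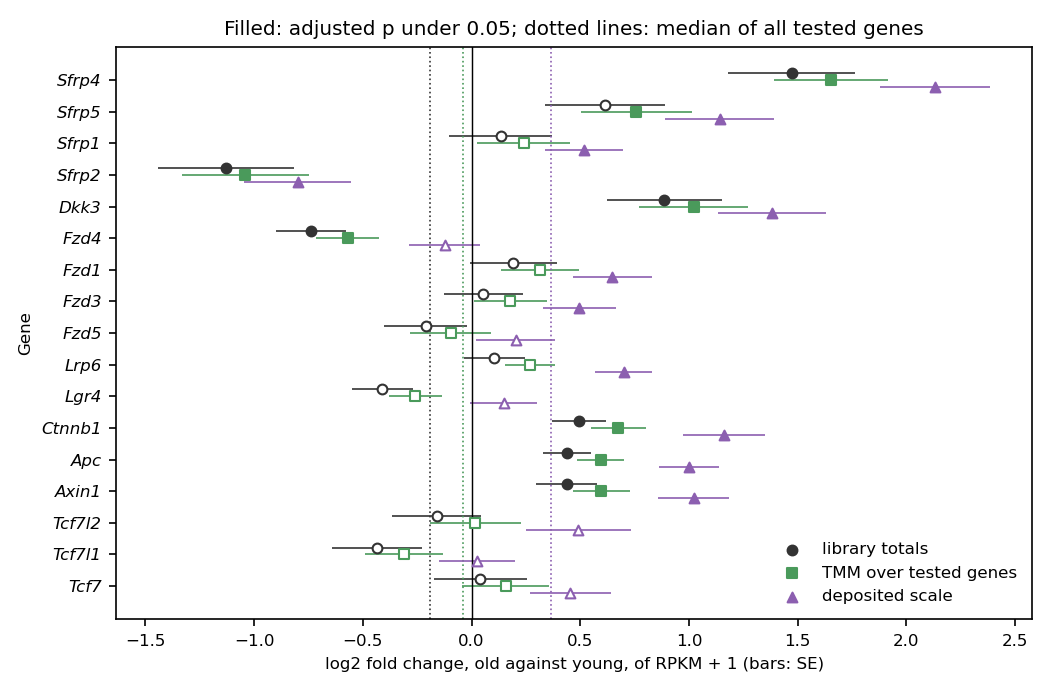
log2 fold change of RPKM + 1, old against young, with its SE, for the 17 tested members on library totals (circles), with TMM over tested genes (squares) and on the deposited scale (triangles). Filled symbols passed an adjusted p of 0.05, and dotted lines mark the median of all tested genes at -0.19, -0.04 and 0.36. Fzd4 lies at -0.74, -0.57 and -0.12 on the respective scales.

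All 19 Wnt ligands and all 4 R-spondins lay below the filter, so no ligand was tested. The ligands summed to 11.9 ± 3.01 RPKM in a young library and to 2.91 ± 0.578 RPKM in an old one (SD, n = 4 each), from 654 and 928 reads in all. Their mean per gene in the young libraries was 0.606, 0.852, 0.533 and 0.504 RPKM, beside 0.402, 0.982, 0.202 and 0.359 RPKM for the silent receptor families. In the old libraries it was 0.166, 0.108, 0.171 and 0.168 RPKM, beside 0.0360, 0.0209, 0.0163 and 0.0347 RPKM. Young animal 2 thus had a ligand mean below that of the silent families, and the other libraries had one above it.

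Of the 37 members below the filter, 35 had the higher mean in young and 2 (Fzd7 and Fzd9) in old. For 24 of them every old value lay below every young value, and for 0 every old value lay above. Among the silent receptor genes 96.1% had the higher mean in young and 55.4% had every old value below every young one, so no direction is read from these members. With the 4 libraries of an age pooled, 1 low member (Wnt4) exceeded the 95th percentile of the silent genes in young, 1.20 RPKM. In old, where that percentile was 0.0786 RPKM, 20 exceeded it. Wnt4 exceeded it at both ages, 19 members exceeded it only in old, and 17 at neither age. The percentile lay far higher in young, so exceeding it only in old does not mean a higher level in old. Of the 37 members, 35 had the higher pooled level in young. Reads of the low members ran from 10 to 194 in young and from 2 to 506 in old.

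The 4 highest of the low members were Fzd7, Wnt4, Lgr5 and Wnt9a. Fzd7, the receptor known to bind Wnt7a on satellite cells, held 0.901, 1.04, 0.808 and 0.659 RPKM in the young and 0.978, 0.781, 0.8293 and 1.41 RPKM in the old libraries, from 61 and 396 reads. Its groups overlapped. Wnt4, a ligand made by muscle fibres as well, held 0.796, 2.74, 1.42 and 1.55 RPKM in the young and 0.594, 0.489, 0.365 and 0.596 RPKM in old, from 107 and 188 reads. Its old values lay below its young ones, as did those of 55.4% of the silent genes. Lgr5, a receptor for R-spondins, had pooled levels of 1.12 RPKM in the young and 0.556 RPKM in old (194 and 506 reads). The ligand Wnt9a had 1.07 and 0.580 RPKM (60 and 171 reads). Axin2, named here after its value was seen, had 0.550 RPKM in the young and 0.119 RPKM in old (51 and 58 reads). The old Axin2 level exceeded the old 95th percentile of the silent genes and the young level did not exceed the young one.

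**Figure D4:**
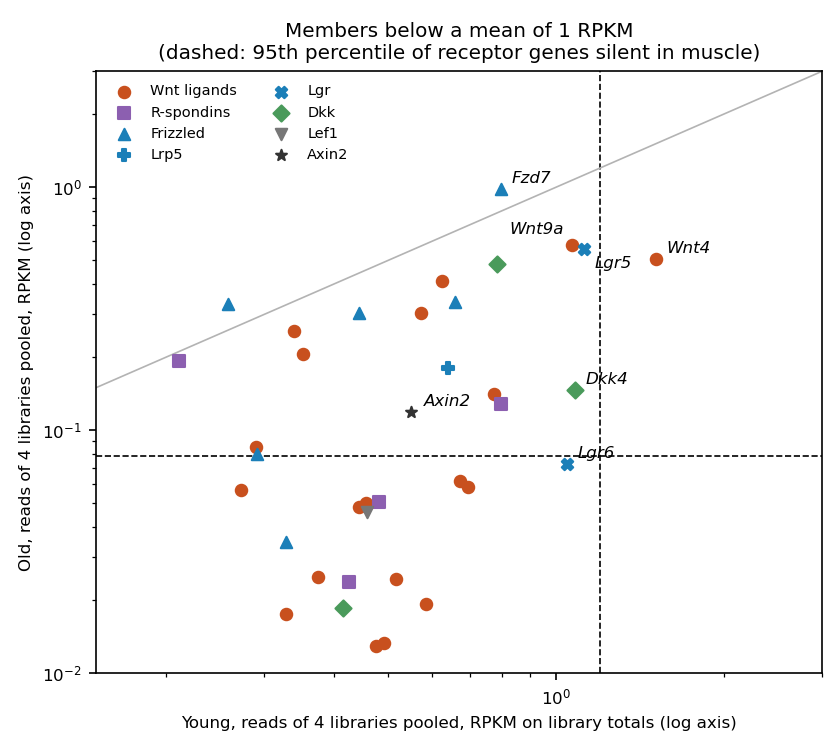
Pooled RPKM on library totals of the 37 low members, young on the horizontal and old on the vertical axis (both log), coloured by role. Dashed lines mark the 95th percentile of silent receptor genes (1.20 RPKM in young, 0.0786 RPKM in old), and the grey line marks equal levels. Wnt4 is the only point right of the vertical line, and Fzd7 and Fzd9 lie above the grey line.

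Other genes of the pathway were taken from a list of 86, of which 63 passed the filter. On library totals 1 was higher in old, 18 were lower and 44 were not called, with a median log2 fold change of -0.20 beside -0.19 over all genes. The share called lower over all genes was 20.5%. On the deposited scale 24 were higher and 5 lower, and with TMM 6 were higher and 13 lower, so the balance of this list follows the scale. The gene that rose was Cd44, a surface glycoprotein and a target of beta-catenin, with 162 ± 35.1 RPKM in old and 67.0 ± 18.8 RPKM in young. Its log2 fold change was 1.28 ± 0.21 (limma adjusted p = 0.00353), and its groups did not overlap.

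The 4 called lower with the largest fold changes were Cby1, Ccnd1, Vangl1 and Invs. Cby1 and Ccnd1 were called lower on all 3 scales. Cby1 (Chibby), which binds beta-catenin and limits its activity, measured 2.14 ± 1.04 RPKM in old and 9.15 ± 1.67 RPKM in young (-1.74 ± 0.23, limma adjusted p = 0.00185). Ccnd1 (cyclin D1), which drives entry into the cell cycle, measured 1.57 ± 0.551 and 6.40 ± 1.82 RPKM (-1.52 ± 0.22, limma adjusted p = 0.00220). Vangl1, a membrane protein of planar cell polarity, measured 0.321 ± 0.0504 and 2.32 ± 1.60 RPKM. Invs (inversin), a ciliary protein of the same branch, measured 0.471 ± 0.111 and 2.23 ± 1.70 RPKM. Vangl1 and Invs reached the filter only through the young libraries, where they are high, so they had to differ and no test is read from them. For comparison, the silent families' mean was 0.486 ± 0.341 RPKM in the young and 0.0270 ± 0.00987 RPKM in the old libraries.

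By role, the lower calls comprised 1 of 2 secretion genes, 3 of 7 extracellular modulators, 3 of 7 surface proteins, 5 of 20 cytoplasmic proteins, 3 of 6 planar polarity genes, 2 of 13 nuclear proteins and 1 of 10 targets, beside 20.5% of all tested genes. The 3 planar polarity genes (Vangl1, Invs and Prickle1, the last named after its value was seen) all left the tested set when the filter was applied in both groups. That filter kept 58 of the 63 genes, with 14 lower and 1 higher, beside 757 higher among all 10224 genes it kept. Some genes stand on more than 1 of these lists. Among the genes called lower, and named after their values were seen, were Porcn, Gsk3b and Tspan12. Porcn, which acylates Wnt proteins for secretion, measured 2.34 ± 0.317 RPKM in old and 4.15 ± 0.852 RPKM in young (-0.61 ± 0.15, limma adjusted p = 0.0153). Gsk3b, a kinase of the destruction complex, measured 1.94 ± 0.238 and 4.16 ± 1.38 RPKM (-0.78 ± 0.18, limma adjusted p = 0.0116). Tspan12, a tetraspanin that acts with Fzd4 in norrin signalling, measured 35.3 ± 6.24 and 69.4 ± 15.7 RPKM (-0.94 ± 0.18, limma adjusted p = 0.00659). None of these 3 was called on the deposited scale, where Tspan12 had a log2 fold change of -0.26, Gsk3b of -0.27 and Porcn of -0.10. With TMM all 3 were called lower.

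Of the 15 listed targets of beta-catenin, 10 passed the filter, with 1 higher (Cd44), 1 lower (Ccnd1) and 8 not called. Myc, the growth regulator, was abundant at both ages, with 850 ± 22.9 RPKM in old and 819 ± 36.2 RPKM in the young and a fold change of 0.05 in log2 units (limma adjusted p = 0.683). Ccn4, a matricellular protein, measured 20.7 ± 3.60 and 15.7 ± 3.08 RPKM (0.38, limma adjusted p = 0.113), and Znrf3, which removes Frizzled from the surface, 2.39 ± 0.526 and 2.78 ± 0.726 RPKM (-0.15, limma adjusted p = 0.535). The remaining log2 fold changes were 0.42 for Fst, 0.27 for Nkd2, 0.10 for Ccn5, -0.08 for Tnfrsf19 and -0.16 for Sox4. Myc, Ccn4, Fst and Nkd2 were called higher on the deposited scale, and Ccn4 with TMM. A target that missed the threshold is not shown to be equal at both ages.

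**Figure D5:**
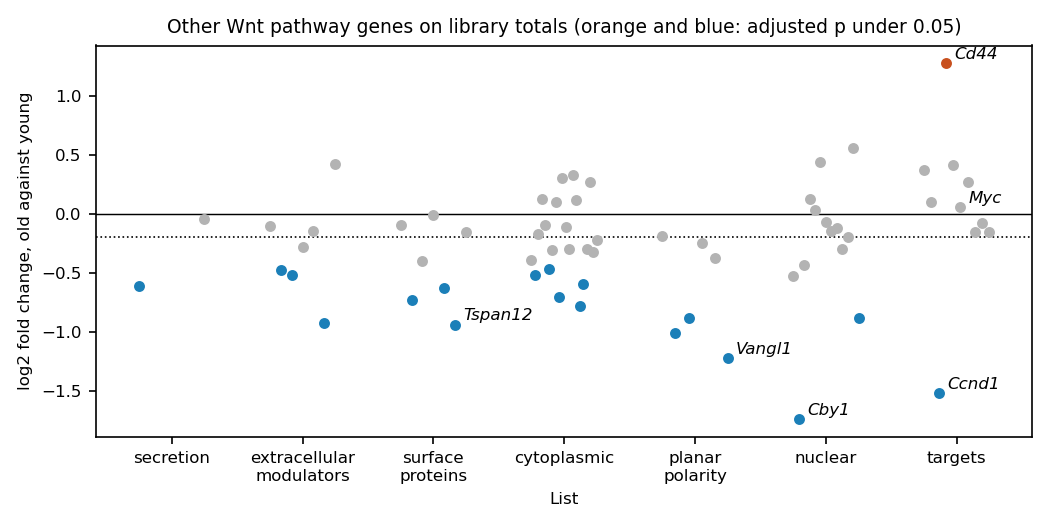
log2 fold change on library totals, old against young, of the other Wnt pathway genes by list. Each point is 1 gene, orange where higher and blue where lower at an adjusted p of 0.05, and the dotted line is the median of all tested genes, -0.19. Cd44 at 1.28 is the only orange point, and Cby1 at -1.74 is the lowest.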

How the data were processed

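RNA of sorted muscle stem cells was sequenced from 4 young and 4 old mice, 1 library per animal. Per the labels' protocols, 101-base paired reads came from SMARTer oligo(dT)-primed cDNA, a kit that does not mark strand. The authors deposited RPKM values for 24630 genes. The tools the authors ran are listed, per the submitters' processing notes, as STAR, Trim Galore, edgeR and Subread with its featureCounts, on mm10 and GRCm38. Their versions and the annotation were not given in the sources used here.

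Low values were whole multiples of 1 read for 100% of 23461 genes with reads (largest distance from a whole number 0.0293, tolerance 0.03). Reads per gene were recovered from them, and 1169 genes had no reads. In 7124 genes with reads, zeros appeared as a small positive value and were set back to 0. The merged exon length of GENCODE M21 matched in 82.2% of 23162 genes. For the other genes with reads, a length was searched that made the reads whole within the tolerance. For those genes the whole numbers are therefore no check, and their reads are known only up to a common factor. RPKM on library totals is the deposited RPKM times the deposited library size over the reads in genes. That factor was 1.29 ± 0.236 in young and 0.789 ± 0.0776 in old libraries.

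Genes with a mean deposited RPKM of at least 1 (11096) were tested on the log2(RPKM + 1) scale, with limma-trend from limma 3.58.1 under R 4.3.3, comparing old with young with no covariates and Benjamini-Hochberg adjustment at 0.05. The pseudocount understates changes of low genes. In simulated data for this comparison over 11096 genes, 14.0%, 56.0%, 94.0% and 94.0% of genes changed by 1.5-, 2-, 3- and 4-fold were recovered, and 12.2% of calls were unchanged genes. The simulation changed 50 genes at each fold. It gave all genes at both ages a common spread taken from the old libraries and added no low-level signal. These shares therefore need not hold for the real libraries. P-values rest on the spread between 4 animals a group.

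Values are given for every tested member. Of the low members the 4 with the highest mean are named, and of other pathway genes up to 4 called in each direction with the largest fold change (1 was called higher), with all targets that passed the filter. Genes named outside this rule are marked as such. The members, lists and tests were chosen with earlier results of these data known. Alternatives were the scale, pseudocount, filter, subtraction of the silent families' mean, thinned reads, a replicate block, and libraries left out. Same-numbered libraries of the 2 ages were also checked for pairing. The ERCC spike-in was not used here.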

Additional observations from a re-analysis of the deposited data

Results flagged for a closer look

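Among the 34 groups of 4 libraries formed by the 17 tested members, 4 held a library that stood apart from the other three by Dixon's ratio of gap to range, at its 95% critical value. Chance alone gives about 1 in 20 groups. In Ctnnb1, young animal 3 was low at 19.5 RPKM, below the other young libraries. In Dkk3, old animal 2 was low at 2.66 RPKM. In Fzd1, young animal 4 was low at 1.00 RPKM, and in Lgr4, young animal 1 was high at 5.68 RPKM.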

How the results depend on the processing

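The scale between libraries and the number of young libraries moved most counts, and what lies behind each change was not tested. Each setting changes 1 choice, except that limma-voom also drops the pseudocount and adds weights, and leaving out young animals 1 and 2 changes both group size and depth. On the deposited scale, 4668 genes were higher and 592 lower in old; 10 members were higher and 1 lower, and 24 other pathway genes were higher and 5 lower. With TMM, 1471 genes and 6 other pathway genes were higher. A filter at a mean of 5 RPKM tested fewer genes (5703), with 701 higher and 714 lower. It left 2 members higher and 1 lower, and 4 other pathway genes lower. Without a filter, 9423 genes were lower and 3 other pathway genes higher, and Lgr4 joined the members called lower, so that 3 were. With the filter applied in both groups 1 member was lower, and 757 of 10224 genes were higher. After subtraction of the silent families' mean, 1212 genes, 1 member and 10 other pathway genes were lower and 2 other pathway genes higher. With reads thinned to equal totals, 571 genes were higher and 1364 lower. In that setting 2 members were higher (Sfrp4 and Ctnnb1), and 2 other pathway genes were higher and 10 lower. With limma-voom on recovered reads, chosen after seeing the data, 788 genes, 3 members (Sfrp4, Ctnnb1 and Apc) and 2 other pathway genes were higher.

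Without young animals 1 and 2, 422 genes were higher and 1336 lower, 1 member (Apc) was higher, 0 were lower by limma-trend, and 10 other pathway genes were lower. At an unadjusted limma-trend p under 0.05 that fit had 4 members higher and 2 lower, against 6 and 3 in the main fit. The share of all genes at that looser threshold is not given here, so nothing is read from these counts. With limma-voom, run on all 8 libraries only, 2 members were lower at an adjusted p under 0.05, beside 2775 of 11096 genes. With each library left out in turn, 504 to 886 genes were higher and 1257 to 2208 lower, 3 to 6 members higher and 1 to 2 lower, and 1 to 3 other pathway genes higher and 13 to 17 lower. Sfrp4, Ctnnb1, Apc and Fzd4 were called in 8 of these 8 fits, Dkk3 in 2 and Axin1 in 1. The counts of lower members include Sfrp2, which passed the filter only through its young libraries. No test is read from it.

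Signs turned for members that were not called: on the deposited scale for Fzd5 (0.20), Lgr4 (0.15), Tcf7l1 (0.027) and Tcf7l2 (0.49), with TMM for Tcf7l2 (0.018), after subtraction for Fzd5 (0.062) and with thinned reads for Tcf7 (-0.10). With 1 library left out, log2 fold changes ran from -0.052 to 0.19 for Tcf7, from -0.068 to 0.15 for Fzd3 and from -0.023 to 0.31 for Sfrp1.

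The labels number the replicates alike at both ages. Deviations of same-numbered libraries correlated at -0.119 to 0.255, over 0.1 in 1 of 4 pairs, and 2 of 8 libraries correlated best with their own number, so the numbers were not taken as pairs. A fit with the replicate number as a block called 3 members higher and 1 lower, with 680 of all 11096 genes higher. The planned edgeR and DESeq2 fits were not run, since the deposited unit is RPKM. Depth limits the low members: 3 reads in a gene of 1 kb are worth up to 1.57 RPKM in the young libraries.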
